A study of Mus musculus with 12 samples.

Results

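In the left atrium (LA), iNICD mice and control littermates were compared for 10 genes of phospholipid breakdown and prostanoid synthesis. The genes were selected by symbol from the 54658 gene names of the counted table: the phospholipases A2 *Pla2g3*, *Pla2g4a*, *Pla2g5*, *Pla2g6* and *Pla2g2d*, the cyclooxygenases *Ptgs1* and *Ptgs2*, and the prostanoid synthases *Ptgis*, *Ptgds* and *Ptges*. All 10 were found, and all 10 were among the 13541 names tested, which required more than 1 CPM (counts per 1000000 reads counted) in at least 6 libraries. Because the list was drawn up with the iNICD to control difference of these libraries known, the levels and differences of the 10 genes between these groups are given as a description. No p-value of this contrast is printed for them, and a count of members called is part of the description and supports nothing.

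RNA sequencing covered 12 LA libraries, 6 from controls and 6 from iNICD mice. The control genotype was amHC-rtTA, the doxycycline-controlled transactivator under a promoter of cardiomyocytes, and the iNICD genotype was amHC-rtTA;TetO-NICD, which adds the Notch intracellular domain (NICD) under a doxycycline response element. Every mouse of both groups therefore carried the transactivator and ate doxycycline chow for 3 weeks with no washout, at an age of 2 to 3 months. The controls were 4 females and 2 males, and the iNICD mice were 3 females and 3 males. The transgene was driven in cardiomyocytes, whereas the RNA came from the whole LA with its vessels, fibroblasts, endocardium and immune cells. In such tissue a change in the number of cells of a type and a change in RNA per cell cannot be told apart.

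Phospholipases A2 cut the middle acyl chain from membrane phospholipids and thereby release fatty acids, arachidonate among them, together with a lysophospholipid. Cyclooxygenases turn arachidonate into prostaglandin H2, and each terminal synthase makes a different product from it: prostacyclin, prostaglandin D2 or prostaglandin E2. In the heart, prostacyclin is known as a vasodilator made mainly in vessel walls, and the inducible cyclooxygenase is known for responses to injury and inflammation.

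The libraries held 21432632 to 27182038 counts each. *Notch1*, whose reads include those of the NICD transgene, had 118 ± 10.01 normalized CPM in controls and 3408 ± 441 in the iNICD LA (mean ± SD over 6 libraries, log2 fold change 4.85, higher in 6 of 6 iNICD libraries, edgeR adjusted p = 3.03e-11), as the labels state. Control replicate 5 stood apart, at -77.4 on the first principal component against -20.2 to 7.98 for the other 5 controls, and it was the highest control for 32.6% and the lowest for 35.8% of all tested genes. Its summed markers of smooth muscle and pericytes were 856 CPM against 452 to 702 in the other controls, its endothelial markers 2089 against 1503 to 1769, its macrophage markers 656 against 483 to 614, and its fibroblast markers 6761 against 8122 to 9609. The fold changes of members that move most with this library are given with and without it. In the iNICD LA, the 9 cardiomyocyte markers summed to 55542 to 65142 CPM against 80591 to 93240 in controls (at most 86143 without control replicate 5). Of the 9, *Nppa*, *Sln*, *Myl7* and *Tnnt2* fell, *Nppa* from 24221 to 4821 CPM, while the other 5 did not pass, among them *Myh6* at 33643 and 32890 CPM. Of the other cell types, *Trac* of the lymphocyte list (log2 fold change 1.71, edgeR adjusted p = 0.0227) and *Mcpt4* of the mast cell and platelet list (3.70, edgeR adjusted p = 0.0021) were higher and *Itga2b* of the latter list was lower (-0.71, edgeR adjusted p = 0.0286). The other mast cell genes of that list did not follow *Mcpt4*: *Kit* did not pass (0.20), and *Cpa3*, *Cma1* and *Tpsb2* did not reach the expression filter. The lymphocyte list summed to 5.09 to 8.57 CPM in controls and 7.08 to 15.1 in the iNICD LA. Of this sum, *Trac* alone averaged 2.79 CPM in controls and 9.14 in the iNICD LA. *Cd3e*, the only other gene of the list that was tested, did not pass (log2 fold change -0.45). The erythroid list summed to 59.4 to 247 CPM in controls (median 162) and 27.1 to 138 in the iNICD LA (median 59.3), and its 5 genes had log2 fold changes from -1.33 to -0.98, none of which passed. The other 9 lists had no gene that passed either, *Chat* of the glia and neuron list had no read in any library, and the part of these markers in the results below was not tested.

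*Pla2g3*, a secreted phospholipase A2 of group III, was the member with the largest difference between the groups. It lies on chromosome 11 of GRCm38 (mm10) at chr11:3488284-3499350, plus strand, with 8 merged exons. In controls its level was 0.515 normalized CPM at the lowest, 0.6004 at the median and 0.869 at the highest, from 11 to 21 reads per library. In the iNICD LA it was 8.48 at the lowest, 13.4 at the median and 22.1 at the highest, from 203 to 543 reads. Every iNICD library therefore lay above every control, and no control reached 1 CPM, so the gene passed the expression filter through the iNICD libraries alone. The means were 0.634 ± 0.138 and 14.3 ± 4.87 normalized CPM (n = 6 each), a log2 fold change of 4.49 ± 0.25 (SE), the eighth largest rise of the 13541 genes (rank 8). Leaving out control replicate 5 gave 4.44, and leaving out each of the 12 libraries in turn gave 4.32 to 4.599.

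Part of the *Pla2g3* locus is shared with another gene. Its last exon overlaps *Inpp5j*, an inositol polyphosphate 5-phosphatase gene on the opposite strand at chr11:3494375-3504821, over 401 bases at chr11:3498950-3499350, or 8.54% of the exon bases of *Pla2g3*. *Inpp5j*, looked up after the values of *Pla2g3* were known, was also higher in the iNICD LA, at 148 ± 16.4 against 99.995 ± 14.9 normalized CPM (log2 fold change 0.57, SE 0.10, edgeR adjusted p = 0.00803), with no overlap between the groups. The libraries were stranded, but whether the counting used strand is not given in the sources used here; without it, reads in the shared bases cannot be assigned to one of the genes. In the 6 controls *Pla2g3* was under 1 CPM and *Inpp5j* averaged 99.995 CPM. The part of the shared bases in the values of either gene was not tested. The next 5 tested genes on either side (*Limk2*, *Rnf185*, *8430429K09Rik*, *Selenom* and *Smtn*) did not pass, with log2 fold changes from -0.05 to 0.30.

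The cytosolic and calcium-independent phospholipases A2 showed far smaller differences. *Pla2g4a*, the cytosolic enzyme with a preference for arachidonate, ranged from 13.9 to 32.6 normalized CPM in controls (median 17.8) and from 13.7 to 22.9 in the iNICD LA (median 17.3). The groups overlapped over most of their range, and the upper end belonged to controls 5 and 2, at 32.6 and 28.6. Its log2 fold change was -0.20 ± 0.21 (SE) and moved to -0.04 without control replicate 5. *Pla2g6*, the calcium-independent enzyme of group VI, ranged from 16.1 to 21.9 in controls (median 20.6) and from 16.4 to 27.0 in the iNICD LA (median 22.9), with a log2 fold change of 0.17 ± 0.11 (SE). These groups overlapped as well, although 4 of the 6 iNICD libraries exceeded the highest control.

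The remaining secreted enzymes varied more between mice. *Pla2g5*, the secreted enzyme of group V, ranged from 7.11 to 16.2 normalized CPM in controls (median 11.8) and from 3.64 to 23.5 in the iNICD LA (median 5.57). The highest value of all 12 libraries was iNICD replicate 2, whereas 4 of the other 5 iNICD libraries lay below every control. Its log2 fold change was -0.49 ± 0.43 (SE) over all libraries and -1.15 without iNICD replicate 2. *Pla2g2d*, a secreted enzyme known from lymphoid tissue, ranged from 1.26 to 5.89 in controls (median 4.66) and from 4.17 to 7.04 in the iNICD LA (median 6.02). Both low values among the controls came from replicates 5 and 2, at 1.26 and 2.07, and the log2 fold change of 0.52 ± 0.32 (SE) became 0.34 without control replicate 5. *Pla2g5* and *Pla2g2d* are neighbours on chromosome 4 (chr4:138799244-138863482, minus strand, and chr4:138775735-138782046, plus strand), 17198 bases apart.

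**Figure D1:**
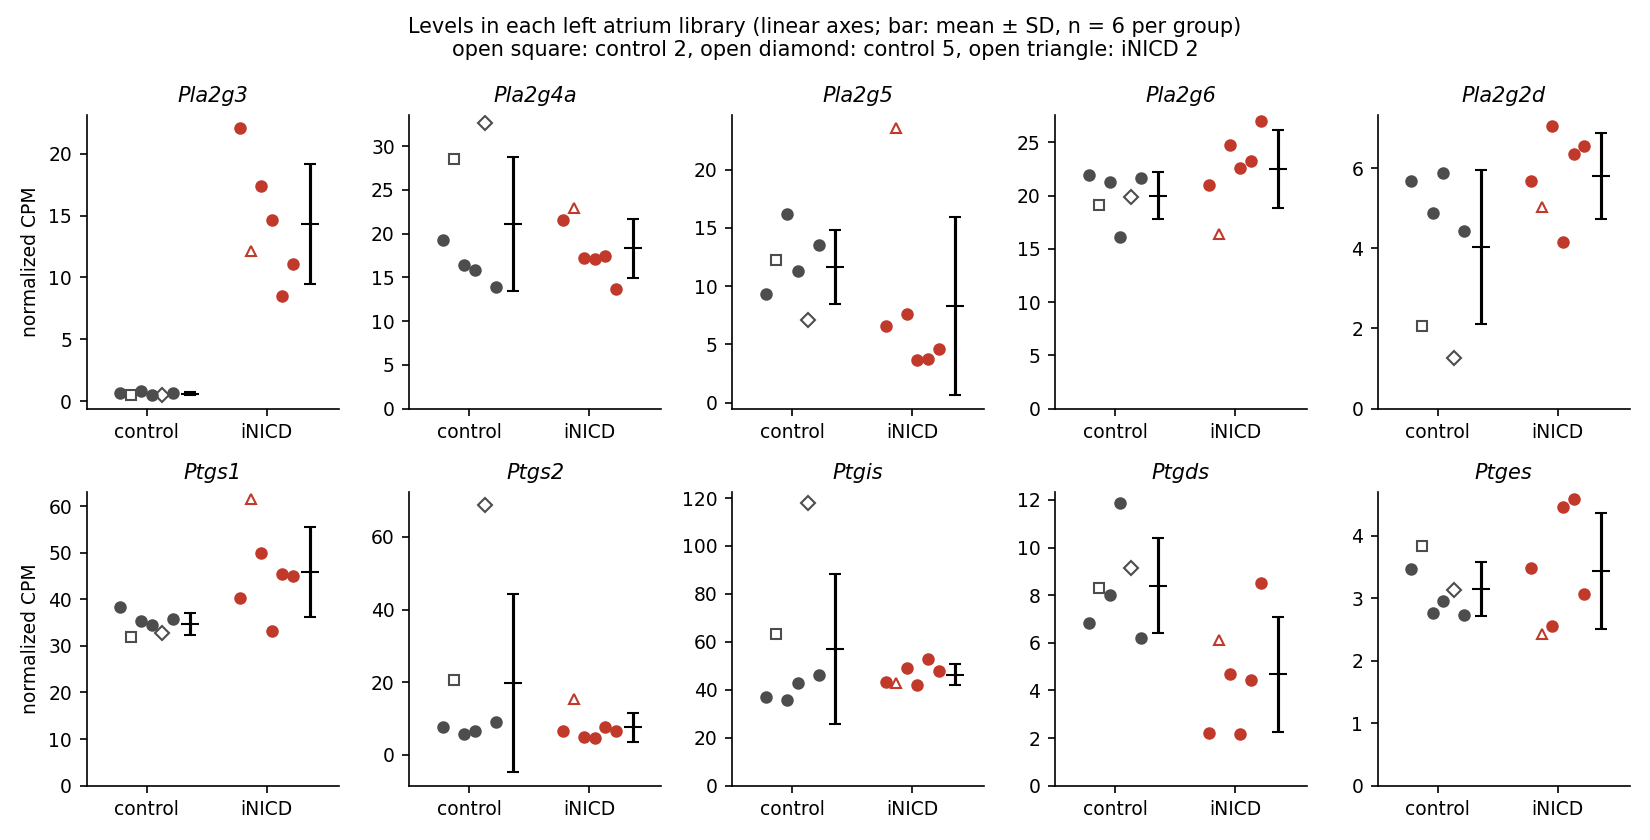
Normalized CPM (vertical axis, linear, a scale per gene) of the 10 genes in each LA library, grouped as control and iNICD, with the mean ± SD beside each group (n = 6). *Pla2g3* separates the groups with all iNICD libraries at 8.48 or more and all controls at 0.869 or less, while the open diamond of control replicate 5 lies far above the other controls in *Ptgs2* and *Ptgis*, and the open triangle of iNICD replicate 2 far above the other iNICD libraries in *Pla2g5*.

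The pair of cyclooxygenases behaved differently from each other. *Ptgs1*, the constitutive form at chr2:36230426-36252272, ranged from 31.9 to 38.4 normalized CPM in controls (median 34.8) and from 33.1 to 61.6 in the iNICD LA (median 45.2). Its controls were the most even of the 10 genes, with a coefficient of variation of 6.66%, and 5 of the 6 iNICD libraries lay above all controls. The log2 fold change was 0.40 ± 0.12 (SE), and leaving out each library in turn gave 0.30 to 0.48. *Ptgs2*, the inducible form at chr1:150100031-150108227, ranged from 5.87 to 68.7 in controls (median 8.35) and from 4.54 to 15.3 in the iNICD LA (median 6.57). Its controls were the least even, with a coefficient of variation of 124%, and 2 controls held the spread: replicate 5 at 68.7 and replicate 2 at 20.7, above 5.87 to 9.12 in the other 4. The log2 fold change was -1.38 ± 0.61 (SE), and without control replicate 5 it was -0.40 ± 0.38 (SE).

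Set per kilobase of gene length, *Ptgs2* made up 12.4% to 64.0% of the summed cyclooxygenase level in controls (median 16.0%) and 7.68% to 17.4% in the iNICD LA (median 11.6%). The 64.0% was control replicate 5, without which the highest control was 35.6%. In that library *Ptgs2* exceeded *Ptgs1*, and in the other 11 libraries *Ptgs1* was the higher of the pair. The same measure for the phospholipases gave *Pla2g3* 0.829% to 1.28% of the summed level of the 5 enzymes in controls and 13.2% to 28.1% in the iNICD LA. This sum covers only the 5 described enzymes, and other phospholipases A2 of the LA, such as *Pla2g16* and *Prdx6*, are not part of it. These shares were chosen after the levels had been seen.

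Because *Ptgs2* and *Pla2g4a* are neighbours, 138741 bases apart on chromosome 1 and pointing away from each other, and because the 2 cyclooxygenases differed so much in spread, the starts of these 3 genes are shown. The windows are RefSeq sequences on GRCm38.p6 of 300 bases across the start site, read 5′ to 3′ on the strand of the gene, for *Ptgs1* on the plus strand (chr2:36230176-36230475), *Ptgs2* on the plus strand (chr1:150099781-150100080) and *Pla2g4a* on the minus strand (chr1:149961241-149961540). Capitals mark matches to 6 motifs searched on both strands. The letters were TGGGAA for the core of RBPJ, the DNA-binding partner of NICD, and CACGTG for the E-box. TGACG stood for the core of the cAMP response element, and TGANTCA for the AP-1 site. TATAAA was used for the TATA box, and GGGCGG for the GC box.

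Ptgs1: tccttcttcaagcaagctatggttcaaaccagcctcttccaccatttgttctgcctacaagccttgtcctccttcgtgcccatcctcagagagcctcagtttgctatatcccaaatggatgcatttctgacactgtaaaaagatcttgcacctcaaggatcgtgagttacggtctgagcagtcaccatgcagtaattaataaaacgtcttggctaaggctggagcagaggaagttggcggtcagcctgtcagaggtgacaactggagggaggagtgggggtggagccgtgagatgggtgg
Ptgs2: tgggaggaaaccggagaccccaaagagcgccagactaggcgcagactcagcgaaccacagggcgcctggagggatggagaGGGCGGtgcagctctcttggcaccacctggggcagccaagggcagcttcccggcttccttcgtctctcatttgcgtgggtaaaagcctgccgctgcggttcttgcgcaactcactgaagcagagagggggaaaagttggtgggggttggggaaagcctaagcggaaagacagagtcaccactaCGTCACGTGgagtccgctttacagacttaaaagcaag
Pla2g4a: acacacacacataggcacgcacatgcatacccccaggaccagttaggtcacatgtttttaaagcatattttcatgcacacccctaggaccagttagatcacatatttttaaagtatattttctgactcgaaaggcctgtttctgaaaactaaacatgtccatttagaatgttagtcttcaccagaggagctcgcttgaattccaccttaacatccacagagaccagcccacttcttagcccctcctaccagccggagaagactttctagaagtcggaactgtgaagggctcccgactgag

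In the *Ptgs2* window, CACGTG began at base 17 and the reverse strand match of TGACG at base 14, counted from 1 at the start site, where the 2 overlap, and GGGCGG began 170 bases before the start site. The *Ptgs1* window and the *Pla2g4a* window shown held none of the 6 motifs. *Pla2g4a* has a second window in the table (chr1:149922390-149922689, not shown), in which TATAAA matched the reverse strand 200 bases before its start site. Of 32851 promoter windows of this length, 7.15% held CACGTG, 20.8% TGACG and 35.7% GGGCGG. In all, 8 of the 10 genes had a window. *Pla2g3* and *Ptgis* had none, so the starts of these genes were not searched for any motif. GGGCGG was also found in the windows of *Pla2g6*, *Pla2g2d* and *Ptges*, and TGACG also in that of *Pla2g6*. TGGGAA, present in 25.6% of windows, was found in those of *Pla2g5* and *Ptges*. TGANTCA, present in 7.81%, was found in the window of *Ptgds*, 35 bases before the start site. The motifs were chosen after the expression values were known, and a match is a description of the sequence only.

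The prostanoid synthases differed in level and in spread. *Ptgis*, prostacyclin synthase at chr2:167191805-167240604, ranged from 35.6 to 118 normalized CPM in controls (median 44.6) and from 41.9 to 53.0 in the iNICD LA (median 45.5). The medians were close, and the control mean of 57.1 ± 31.4 exceeded the iNICD mean of 46.3 ± 4.45 with control replicate 5, at 118, included, whereas the other 5 controls averaged 44.9. The log2 fold change was -0.30 ± 0.26 (SE), and 0.04 without control replicate 5, a change of sign. *Ptgds*, the lipocalin-type prostaglandin D synthase at chr2:25466709-25470046, ranged from 6.20 to 11.9 in controls (median 8.16) and from 2.16 to 8.49 in the iNICD LA (median 4.55). Here 5 of the 6 iNICD libraries lay below every control while iNICD replicate 6, at 8.49, lay inside the control range, and the log2 fold change was -0.84 ± 0.31 (SE). *Ptges*, the microsomal prostaglandin E synthase at chr2:30889471-30929863, was low in both groups, with 2.73 to 3.84 in controls (median 3.05) and 2.43 to 4.597 in the iNICD LA (median 3.29), and its log2 fold change was 0.12 ± 0.18 (SE).

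**Figure D2:**
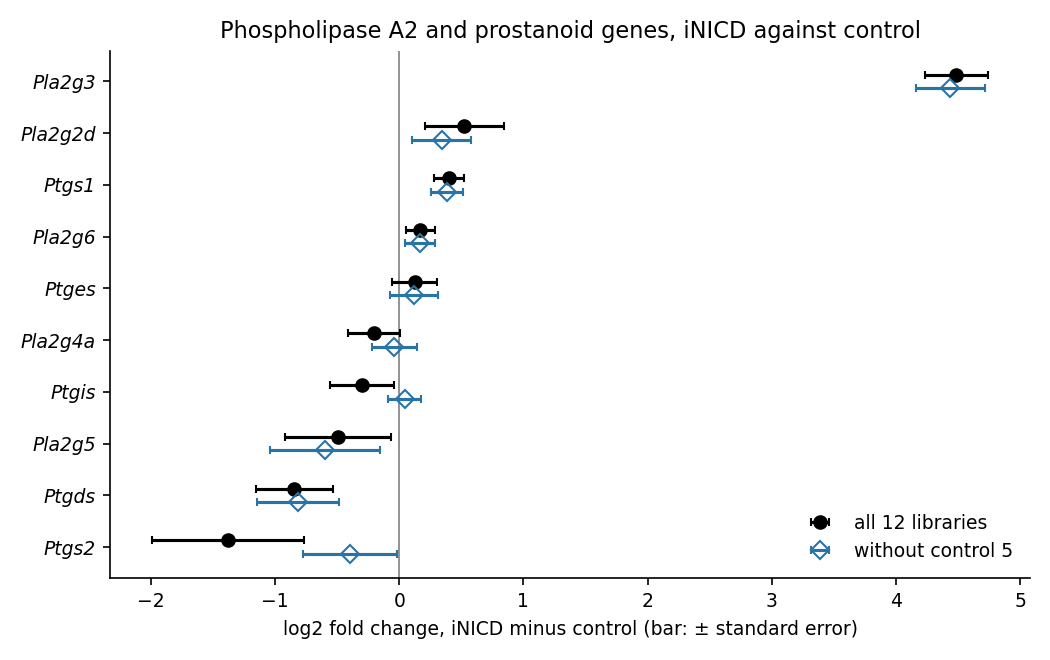
Log2 fold change of the iNICD LA minus control LA (horizontal axis) with its standard error for the 10 genes (vertical axis), from all 12 libraries (filled) and without control replicate 5 (open). *Pla2g3* stays at 4.49 and 4.44, whereas *Ptgs2* moves from -1.38 to -0.40 and *Ptgis* from -0.30 to 0.04.

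Of the 10 genes, 1 was called higher and 0 lower at an adjusted p under 0.05, and the same gene, *Pla2g3*, was the only one whose groups did not overlap. Over all 13541 tested genes, 4.12% were called (2.78% higher and 1.34% lower), and 3.83% had groups that did not overlap (2.58% with iNICD above and 1.25% with iNICD below). Since this contrast entered the choice of the genes, nothing is read from the comparison of these shares. The 10 log2 fold changes were split evenly, 5 above 0 and 5 below, with a median of -0.04 beside -0.01 for all tested genes.

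The same few libraries held the extremes of several members. Control replicates 5 and 2 were the 2 highest controls for *Pla2g4a*, *Ptgs2* and *Ptgis* and the 2 lowest for *Pla2g3*, *Pla2g2d* and *Ptgs1*. Among the iNICD libraries, replicate 2 was the highest for *Pla2g4a*, *Pla2g5*, *Ptgs1* and *Ptgs2* and the lowest for *Pla2g6* and *Ptges*. Control replicate 5 was the highest or lowest control for 3 genes each (30%), near its share over all tested genes given above. Such shares were not computed for iNICD replicate 2 or for control replicates 5 and 2 together. Their extremes are therefore not read as particular to these genes. The marker values of control replicate 5 stand in the opening, and their part in these levels was not tested.

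**Figure D3:**
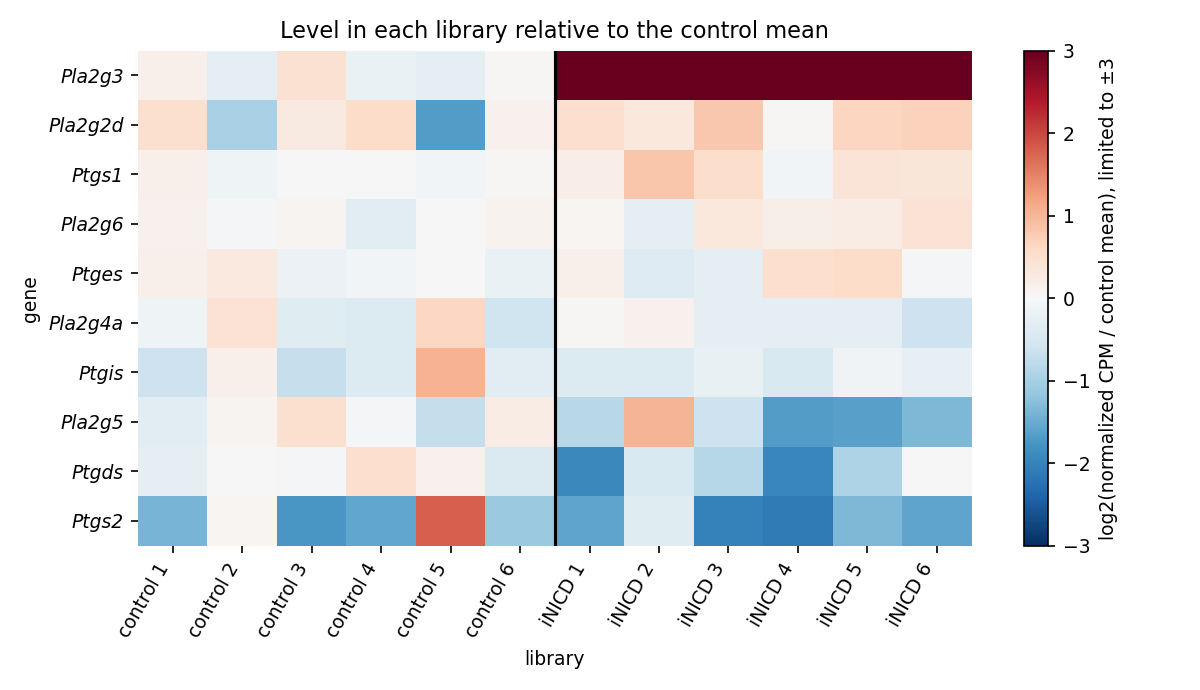
Log2 ratio of each library to the control mean (colour, limited to 3 either way) for the 10 genes (vertical axis) in the 12 libraries (horizontal axis, controls left of the line). The 6 iNICD libraries are at the upper limit for *Pla2g3*, and control replicate 5 is high for *Ptgs2* and *Ptgis* and low for *Pla2g2d*.

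Levels between genes were compared per kilobase of gene length. In controls the order by mean log2 level was *Ptgis*, *Ptgs1*, *Ptgds*, *Pla2g5*, *Pla2g6*, *Pla2g4a*, *Ptgs2*, *Pla2g2d*, *Ptges* and *Pla2g3*, from 22.2 ± 12.2 normalized CPM per kilobase for *Ptgis* to 0.135 ± 0.0293 for *Pla2g3*. Neighbours in this order were compared within libraries by an exact sign-flip permutation test (two-sided, n = 6), whose smallest possible p is 0.0312. *Ptgis* over *Ptgs1* and *Ptgs1* over *Ptgds* held in 6 of 6 controls and reached this smallest p, 0.0938 after adjustment over the 9 pairs, and 0 of 9 neighbour pairs passed. At this smallest p, a pair can pass the adjustment only if most of the 9 pairs reach it. The order also came from the same controls, so nothing is concluded from pairs that did not pass. The place of *Pla2g3* below *Ptges*, also in 6 of 6 controls, is a description, since the gene was chosen for its rise from low control levels. The 5 enzymes and synthases from *Ptgds* to *Ptgs2* stood between 1.45 and 2.31 in mean log2 level, and no neighbours among them kept 1 order in all 6 controls. In the iNICD LA *Pla2g3* had rank 4 of the 10 genes, at 3.05 ± 1.04 normalized CPM per kilobase, between *Pla2g6* at 4.14 ± 0.669 and *Pla2g4a* at 2.87 ± 0.525. It lay below *Pla2g6* in 5 of 6 libraries and above *Pla2g4a* in only 4 of 6, with mean log2 differences of 0.49 and 0.04, so its place among these neighbours is within their spread. *Ptgis* at 18.0 ± 1.73 and *Ptgs1* at 11.8 ± 2.46 again held the top of the order.

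**Figure D4:**
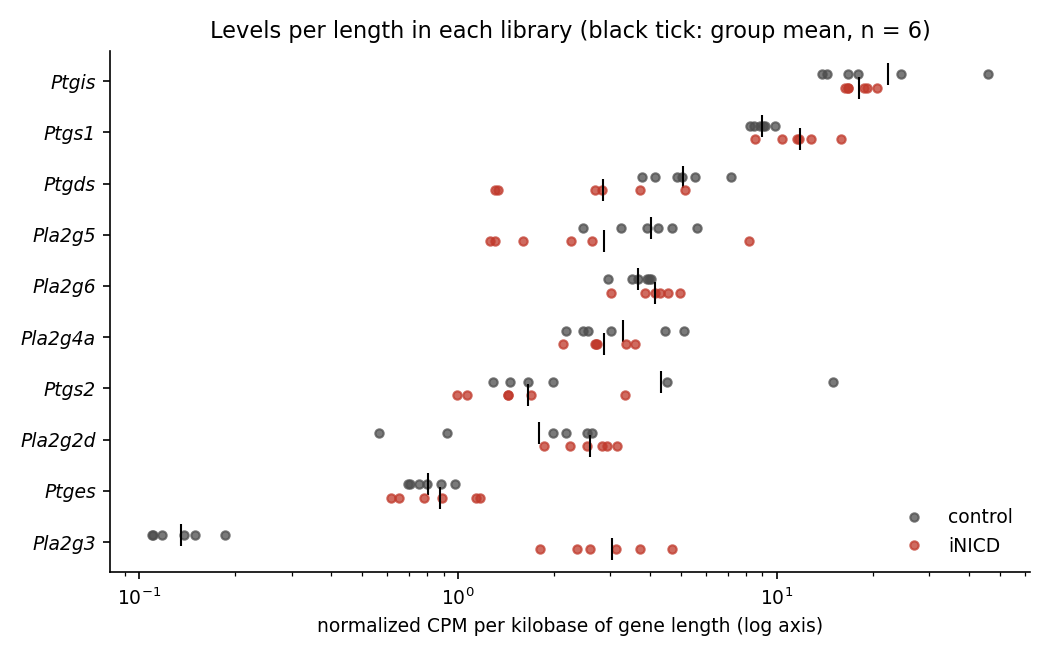
Normalized CPM per kilobase of gene length (horizontal log axis) of the 10 genes (vertical axis, in the order of the control mean log2 levels) in each control and iNICD library, with the group mean as a black tick. *Pla2g3* moves from 0.135 in controls to 3.05 in the iNICD LA, into the range of the other phospholipases A2 among the 10 genes.

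Sex, which played no part in the choice of the genes, was compared with genotype in the fit. None of the 10 genes passed (edgeR quasi-likelihood test, adjusted p from 0.294 to 0.983), beside 39 of 13541 genes (0.288%) that did, or 495 under DESeq2 and 21 to 140 on leaving out 1 library. *Pla2g5* (males minus females -0.95, SE 0.38, edgeR adjusted p = 0.294) and *Pla2g3* (-0.47, SE 0.21, edgeR adjusted p = 0.351) were the 2 genes with an unadjusted p under 0.05, beside 1883 of all tested genes. *Ptgs2* had a difference of 0.76 with an SE of 0.61. The difference between the sexes in the iNICD response was tested as an interaction, and again 0 of 10 genes passed (edgeR adjusted p from 0.916 to 0.936), beside 0 of all genes (0%), of which 501 had an unadjusted p under 0.05 and 1 passed under DESeq2. Without control replicate 6, which leaves control replicate 5 as the lone male control, 1636 genes and 2 of the 10, *Ptgs2* and *Ptgis*, passed. *Ptgs2* was the 1 gene of the 10 with an unadjusted p under 0.05 (-2.43, SE 1.02, edgeR adjusted p = 0.916). Its iNICD to control difference was -2.65 in males and -0.20 in females. Control replicate 5 is 1 of only 2 male controls, and without it, with the lone male control assumed to vary like the other libraries, the value in males was -0.54 and the interaction -0.34 (SE 0.91). For *Ptgis* the values were -0.80 in males and 0.01 in females, and 0.04 in males without control replicate 5. For *Pla2g5* they were -1.38 in males and 0.03 in females. The female value included iNICD replicate 2, at 23.5 normalized CPM the highest of all libraries, and was -0.80 (SE 0.23) without it, with an interaction of -0.57 (SE 0.40) in place of -1.40 (SE 0.65). For *Pla2g3* they were 4.27 in males and 4.70 in females.

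The wider eicosanoid pathway was covered by 110 further genes listed by function, of which 108 names were in the table and 77 were tested. Of these, 4 rose and 0 fell (5.19%, beside 4.12% of all tested genes), and their median log2 fold change was 0.07. All 4 belonged to 2 lists, the other phospholipases A2 (2 of 17 tested) and the genes of arachidonate release and re-esterification (2 of 20 tested). No gene passed among the 9 other genes of prostanoid synthesis, the 6 of prostanoid breakdown and transport, the 6 receptors, the 9 of the lipoxygenase and leukotriene branch or the 10 of the cytochrome P450 and epoxide hydrolase branch. Of these, *Cyp2j6*, an epoxygenase of arachidonate named after the alternatives were seen (log2 fold change 0.47, SE 0.13, edgeR adjusted p = 0.0659), passed in 5 of 22 alternatives: DESeq2, the exact test of edgeR, the block by description numbers, and without control replicate 5 or 6.

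Among the other phospholipases, *Pla2g16*, which encodes a membrane-bound phospholipase and acyltransferase, was 153 at the lowest and 196 at the highest in controls and 205 to 242 normalized CPM in the iNICD LA. The groups did not overlap, and the gene rose by 0.38 on the log2 scale (SE 0.07, edgeR adjusted p = 0.00706). *Prdx6*, a peroxiredoxin that also has phospholipase A2 activity, was 122 to 142 in controls and 152 to 167 in the iNICD LA, again with no overlap (log2 fold change 0.32, SE 0.05, edgeR adjusted p = 0.00371). Both passed in 21 of 22 alternative analyses. The 15 tested genes of this list that did not pass ranged from -0.39 to 1.80. The upper end, named after its value was seen, was *Pnpla3*, a lipase and acyltransferase of lipid droplets, at 2.22 ± 1.54 and 7.82 ± 3.60 normalized CPM (log2 fold change 1.80, SE 0.59, edgeR adjusted p = 0.123). It passed in 4 of 22 alternatives, namely DESeq2, sex as a covariate, the replicate block by titles and females alone. *Pla2g1b*, *Pla2g2a* and *Pla2g10* had no read in any library.

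Of the genes of release and re-esterification, *Lpcat1*, a lysophosphatidylcholine acyltransferase, was 13.7 to 19.9 normalized CPM in controls and 22.4 to 24.9 in the iNICD LA, with no overlap (log2 fold change 0.44, SE 0.08, edgeR adjusted p = 0.00891). *Acsl6*, a long-chain acyl-CoA synthetase, was 14.8 to 28.5 in controls and 27.0 to 51.5 in the iNICD LA, where the groups overlapped (log2 fold change 0.77, SE 0.19, edgeR adjusted p = 0.0397). *Acsl6* lost its call in 11 of 22 alternatives and *Lpcat1* in 3. The 18 other tested genes of this list ranged from -0.46 to 0.52. Of them, *Acsl3* (0.48) passed in 6 of 22 alternatives, the replicate block by titles, a sex term and females alone among them, *Dagla* (0.52) in 3 and *Mgll* (-0.46) in 2.

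The receptors that read prostanoids at the cell surface did not pass. *Ptgfr*, the receptor of prostaglandin F2 alpha, had 127 ± 28.9 and 147 ± 70.0 normalized CPM in controls and in the iNICD LA. *Ptgir*, the prostacyclin receptor, had 8.03 ± 1.598 and 9.33 ± 1.13. *Tbxa2r*, the thromboxane receptor, had 3.24 ± 1.80 and 5.63 ± 2.25 (log2 fold change 0.79, SE 0.40, edgeR adjusted p = 0.335). *Ptger2*, *Ptger3*, *Ptgdr* and *Ptgdr2* did not reach the expression filter.

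**Figure D5:**
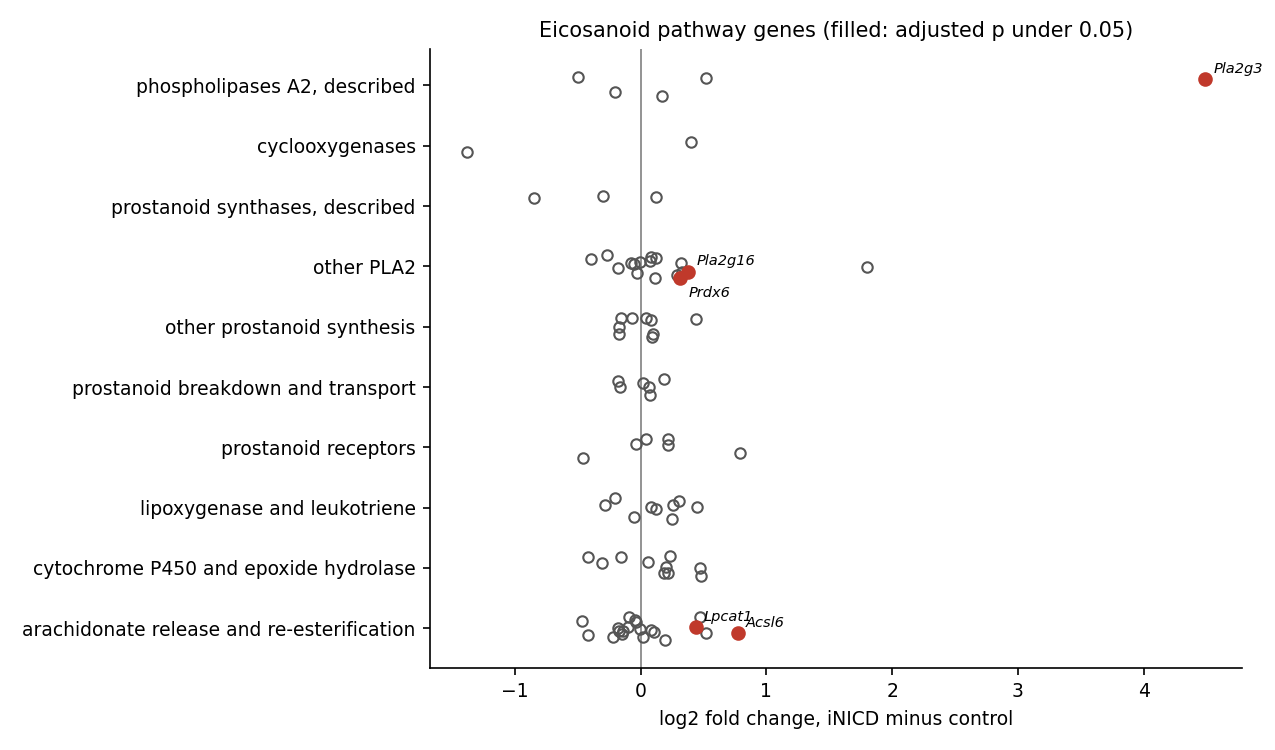
Log2 fold change of the iNICD LA minus control LA (horizontal axis) for each tested gene of the eicosanoid pathway, by list (vertical axis, points spread vertically for visibility), with filled points at an adjusted p under 0.05. Besides *Pla2g3* at 4.49, only *Pla2g16*, *Prdx6*, *Lpcat1* and *Acsl6*, between 0.32 and 0.77, are filled.

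The genes whose pattern over the 12 libraries lay nearest to that of *Pla2g3* were *Ccdc180*, *AW011738*, *Notch1*, *Nrarp* and *Grhl3*, by root mean square distance of log2 CPM centred on the control mean (0.439, 0.466, 0.527, 0.567 and 0.577). *Nrarp* encodes an ankyrin repeat protein known as a target and regulator of Notch signaling, and *Grhl3* a grainyhead-like transcription factor. *Nrarp* was at 11.1 ± 2.23 and 232 ± 98.3 normalized CPM, and *Grhl3* at 0.347 ± 0.181 and 8.11 ± 4.61. The distance is dominated by the difference between the groups, which all 5 share with *Pla2g3* by the way they were found.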

How the data were processed

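RNA of 6 control and 6 iNICD left atria was depleted of ribosomal RNA and sequenced by the authors as stranded single-end libraries. The deposited values are raw read counts per gene name, with no normalization, and a length in bases per name that is the authors' own. The submitters' processing notes name cutadapt, STAR 2.4.2a, Subread, featureCounts and edgeR with mm10. The paper's methods describe 2 counting routes, and the tools of these notes are those of the route with STAR and featureCounts. For that route the paper gives a version of STAR that differs from the one in the notes. Whether the counting used strand is not given in the sources used here. Groups, replicate numbers and sex were taken from titles, genotypes and descriptions. The labels call the samples biological replicates. No pair of libraries in a group was a copy of another.

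A name entered the tests if its CPM exceeded 1 in 6 or more libraries (13541 of 54658). R 4.3.3 with edgeR 4.0.16 was used for TMM factors and two-sided quasi-likelihood tests. P-values were adjusted across the 13541 names by Benjamini and Hochberg, and 0.05 was the threshold. The F statistic gave the standard error of each log2 fold change. To obtain normalized CPM, each count was divided by the library total times its TMM factor, and levels per length divide this by the deposited length. Sex was tested with genotype as a covariate, and the interaction with both. DESeq2 1.42.0 was an alternative. The other alternatives were the exact test of edgeR, RLE factors, a replicate block, a sex term, 2 other filters, fits of 1 sex, and fits without 1 library. In fits without a library or of a single sex the same 13541 genes were kept. This choice was made after a filter on the remaining libraries was seen to leave *Pla2g3* untested whenever an iNICD library was left out. Tested on simulated counts of 13541 genes for iNICD against control, the main test recovered 81.5% of 200 genes changed 1 log2 unit, with 2.98% false calls, and 97% of those changed 2 units, with 5.83%.

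Gene positions are from GENCODE M21 on GRCm38, in which the exon union equalled the deposited length for all 10 genes. The 10 genes and all lists were chosen with earlier results of these data known. All 10 were named, as were *Notch1*, up to 5 genes called in each direction per pathway list, and the 5 genes nearest to *Pla2g3*. Total counts limit the precision of low genes, and such counting error is part of the spread between libraries. The replicate numbers were not taken to pair the samples, since not every pair correlated. Of the 110 pathway genes, *Prxl2b* and *Cyp2c44* were not found by name.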

Additional observations from a re-analysis of the deposited data

Results flagged for a closer look

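In groups of 6 libraries, a library was singled out where its gap to the nearest other exceeded the 95% critical value of Dixon's ratio to the range of the group. Of 38 groups examined, over the 10 genes and the other named genes, 5 met this, where chance gives about 1.9 (1 in 20). That figure holds for independent groups of normally distributed values. These groups share libraries and were taken as linear CPM, so no excess over chance is read from it.

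*Ptgs2* in control replicate 5 was 68.7 normalized CPM, against 5.87 to 20.7 in the other 5 controls. *Ptgis* in the same library was 118, against 35.6 to 63.1. *Pla2g5* in iNICD replicate 2 was 23.5, against 3.64 to 7.59 in the other iNICD libraries, and *Ptgs2* in that library was 15.3, against 4.54 to 7.77. *Grhl3* in iNICD replicate 4 was 17.2, against 5.04 to 8.41.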

How the results depend on the processing

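Over 22 alternatives the log2 fold change of *Pla2g3* was 4.27 to 4.70, which supports nothing on its own, since the gene was chosen on this contrast and had passed the filter through the iNICD libraries. *Ptgds*, *Ptgs2*, *Ptgs1*, *Pla2g6* and *Pla2g2d* kept their sign in all 22. In females alone *Pla2g4a* was 0.04, *Pla2g5* 0.03, *Ptgis* 0.01 and *Ptges* -0.21, each a change of sign, as was *Ptgis* at 0.04 without control replicate 5. DESeq2 called 615 genes higher and 444 lower (377 and 181 with edgeR), 2 of the 10 genes and 9 pathway genes (4 with edgeR), and for sex 495 and for the interaction 1. The exact test of edgeR called 279 lower and 8 pathway genes. In males alone, 8 genes were higher and 0 lower, with 0 of the 10 genes and 0 pathway genes. Without a filter 70 genes differed by sex. Leaving out 1 library gave 273 to 495 higher, 92 to 304 lower (92 without iNICD replicate 1, 304 without control replicate 5), 1 to 2 of the 10 genes (the second was *Pla2g5* without iNICD replicate 2 and *Ptgs1* without iNICD replicate 4, a description as the genes were chosen on this contrast), 3 to 6 pathway genes, 21 to 140 genes by sex, and for the interaction 0 to 1636 genes and 0 to 2 of the 10 genes. The 1636 genes, *Ptgs2* and *Ptgis* among them, came without control replicate 6, which left control replicate 5 as the only male control. With the filter renewed each time, an alternative added after seeing the data, leaving out 1 library gave 252 to 486 higher, 90 to 310 lower, 0 to 1 of the 10 genes and 3 to 6 pathway genes, with *Pla2g3* untested in the 6 fits without an iNICD library. The cause of the other differences was not tested. Replicate numbers of the titles correlated above 0.1 in 4 of 6 pairs (-0.15 to 0.37) and those of the descriptions in 4 of 6, so, with 2 pairs short of this in each, they were not taken to pair the samples, which does not show that no pairing exists. A replicate block by titles gave 332 genes higher, 136 lower, 1 of the 10 genes and 6 pathway genes, and by descriptions 285, 136, 1 and 3; 2 of 6 and 1 of 6 pairs were each other's best match. The median log2 fold change was -0.01 with TMM and with RLE, and calls were 67.6%, 66.0% and 58.1% higher with TMM, RLE and DESeq2. With 11 to 21 reads per control, the fold of *Pla2g3* rests on few control reads. Member values within a sex without control replicate 5 or iNICD replicate 2 were added after seeing the data and stand beside the values they alter.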

Other observations

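Control replicate 5 was also distant from the other controls in several genes around arachidonate handling, which were looked up after its *Ptgs2* level was seen. *Anxa2*, an annexin, was at 384 normalized CPM against 105 to 228, and *S100a10*, its binding partner, at 90.3 against 29.5 to 50.5. *Cyp1b1*, a cytochrome P450, was at 92.3 against 30.0 to 40.9, and *Acsl4*, an acyl-CoA synthetase with a preference for arachidonate, at 71.8 against 28.4 to 44.4. In the other direction, *Pla2g4e*, a cytosolic phospholipase gene, was at 17.2 against 49.0 to 96.6 and *Cysltr1*, a leukotriene receptor, at 5.76 against 12.7 to 19.4. Of the 77 tested pathway genes, this library was the highest control for 22 (28.6%) and the lowest for 32 (41.6%), beside 32.6% and 35.8% of all tested genes.

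The 3 nearest tested genes on either side of each of the 10 genes were looked up after the values were seen. Of these 48 neighbours, the 10 genes themselves left out, 6 passed (12.5%, beside 4.12% of all tested genes), *Inpp5j* among them. *Prrx2*, a homeobox gene 8220 bases from *Ptges*, was higher in the iNICD LA (log2 fold change 1.70, SE 0.23, edgeR adjusted p = 0.000871, above in 6 of 6 libraries), while *Ptges* had 0.12. *Pdcl*, *Rc3h2* and *Zbtb6*, 1097802 to 1173228 bases from *Ptgs1*, were higher by 0.58, 0.54 and 0.54 with no overlap between the groups (edgeR adjusted p = 0.000602, 9.27e-05 and 0.000665). *Tmco4*, 109406 bases from *Pla2g5*, was lower (-0.36, SE 0.08, edgeR adjusted p = 0.0286), with groups that overlapped.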
